A study of Mus musculus with 24 samples.

Results

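The inflammasome genes followed here are Nlrp3, Aim2, Pycard, Casp1, Casp4, Casp8 and Gsdmd. They were picked by name as the sensor, adaptor, caspase and pore genes of the inflammasome, and all 7 were found by symbol among the 23871 genes of the PAPERCLIP count tables and by Ensembl identifier among the 47069 of the RNA-seq tables. PAPERCLIP sequences 3′ ends of mRNA crosslinked to poly(A)-binding protein, and in its cTag form only cells that express Cre carry the GFP tag by which that protein is pulled down. Tagged whole brain of Cx3cr1-Cre; Ctag-PABP mice gave 3 libraries after bacterial lipopolysaccharide (LPS), 3 after phosphate-buffered saline (PBS) and 2 with no treatment named. Cx3cr1 drives Cre in microglia and also in brain border macrophages and some blood leukocytes, so these libraries can hold mRNA of those cells. The labels give no dose, age or strain for the tagged mice. From tagged cortex came 2 untreated libraries per line, with Cre driven by Gfap (astrocytes), Gad2 (inhibitory neurons) or Camk2a (excitatory neurons). RNA-seq of poly(A) RNA came from microglia that were selected with CD11b beads from pooled brains, 2 to a tube. The donors were adult wild-type C57BL/6 mice injected intraperitoneally every day for 4 days with LPS at 1 mg/kg (3 libraries) or PBS (3 libraries). PAPERCLIP of liver labelled CL57/B6J with no Cre named (1 library) and RNA-seq of Ptbp2-KO cortex of E18.5 embryos (3 libraries) entered no comparison.

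An inflammasome is a protein platform that a sensor such as NLRP3 or AIM2 builds in the cytosol when it meets a danger signal or foreign DNA. The adaptor ASC, which Pycard encodes, joins the sensor to caspase-1, and caspase-1 cuts the precursors of interleukin-1β and interleukin-18 and frees the pore-forming end of gasdermin D. In macrophages, LPS acts first as a priming signal that raises mRNAs of the pathway, and caspase-11, the product of mouse Casp4, binds LPS that reaches the cytosol and cuts gasdermin D directly.

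On RefSeq's GRCm38.p6, Nlrp3 (ENSMUSG00000032691) lies at chr11:59541569-59566955, Aim2 (ENSMUSG00000037860) at chr1:173349547-173466040 and Pycard (ENSMUSG00000030793) at chr7:127991373-127993867. Casp1 (ENSMUSG00000025888) at chr9:5298517-5307281 and Casp4 (ENSMUSG00000033538) at chr9:5308849-5336791 are neighbours. Casp8 (ENSMUSG00000026029) lies at chr1:58795233-58847503 and Gsdmd (ENSMUSG00000022575) at chr15:75862144-75867408. Counts are per whole gene, so no exon or 3′ end is told apart.

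Library totals limited what could be seen. Tagged Cx3cr1 libraries held 679115 to 1041245 counts after LPS, 266330 to 337770 after PBS, and 154959 and 133456 untreated, while RNA-seq libraries held 1250170 to 2133407 counts. The 10 microglial markers summed to 23010 to 34090 CPM (counts scaled to library size) in the tagged Cx3cr1 libraries, against 36.6 to 131 CPM in the cortical ones, so the cell type label held. The same sum was lower after LPS in both assays, at 25180 to 30630 CPM after LPS and 38620 to 38980 after PBS in RNA-seq, and at 23010 to 26110 after LPS and 28280 to 30820 after PBS in PAPERCLIP. In RNA-seq, neutrophil markers summed to 808 to 932 CPM after LPS, against 1400 CPM in PBS replicate 3, which stood apart, and 286 and 135 CPM in the other PBS libraries. T and NK cell markers summed to 119 to 230 CPM after LPS and 11.4 to 16.8 CPM after PBS there, mostly from Gzma, Gzmb, Nkg7 and Ncr1, with the T cell gene Cd3e at 0 in every PBS library and at 0.469 CPM or less after LPS. In PAPERCLIP, PBS replicate 3 stood apart through neuronal markers at 2863 CPM and liver markers at 2410 CPM, against at most 714 CPM for either in the other treated libraries. Neutrophil markers there summed to 4.715 to 5.89 CPM after LPS and to 0 to 3.755 CPM after PBS. These sums came from 4 to 6 reads per library after LPS and at most 1 after PBS. Of the 9 measured, 5 were at 0 in all LPS and PBS libraries. The part of these shifts in the changes below was not tested unless a value is given.

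The promoters of Casp4, Pycard and Casp1 were picked for display after the LPS results were known. Casp4 and Pycard were the members that passed the test for higher mRNA after LPS in RNA-seq, and Casp1, which lies 1567 bases from Casp4 on chromosome 9, did not. The changes were not tested against each other. The 95% intervals of the log2 change overlapped for Pycard (0.20 to 0.70) and Casp1 (0.03 to 0.61). Windows from 250 bases before to 50 after the annotated start come from RefSeq (GRCm38.p6), where 6 of the 7 genes had an entry, and run 5′ to 3′ along the gene's strand. Capitals mark every match on either strand to the NF-kB motif (10 letters, given by name), the interferon-response element (also 10 letters), the GAS element (TTCNNNGAA), AP-1 (TGANTCA) and a PU.1-type site (GAGGAAGT).
Casp4, chr9:5308599-5308898, plus strand: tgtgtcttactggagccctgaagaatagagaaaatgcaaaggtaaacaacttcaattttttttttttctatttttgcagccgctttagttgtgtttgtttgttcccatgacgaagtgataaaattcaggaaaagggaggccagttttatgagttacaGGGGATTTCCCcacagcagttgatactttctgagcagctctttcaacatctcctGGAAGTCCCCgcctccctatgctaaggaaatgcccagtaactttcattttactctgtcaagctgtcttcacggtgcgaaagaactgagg
Pycard, chr7:127993818-127994117, minus strand: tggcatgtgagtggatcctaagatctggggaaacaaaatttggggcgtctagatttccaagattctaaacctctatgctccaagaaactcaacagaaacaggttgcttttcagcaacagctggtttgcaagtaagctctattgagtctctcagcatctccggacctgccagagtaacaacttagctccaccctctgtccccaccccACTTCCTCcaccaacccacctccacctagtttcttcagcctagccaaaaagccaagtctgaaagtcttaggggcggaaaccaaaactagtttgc
Casp1, chr9:5298267-5298566, plus strand: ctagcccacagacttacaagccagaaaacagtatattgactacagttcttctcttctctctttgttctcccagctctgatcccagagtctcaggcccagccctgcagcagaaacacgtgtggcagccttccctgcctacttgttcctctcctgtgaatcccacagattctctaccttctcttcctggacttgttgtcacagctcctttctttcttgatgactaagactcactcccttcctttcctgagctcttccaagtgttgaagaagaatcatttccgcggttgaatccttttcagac
Casp4 held a pair of overlapping NF-kB matches between 93 and 83 bases upstream of the start and another, on the opposite strand, 39 to 30 bases upstream. A further Casp4 window, chr9:5308610-5308909, overlaps the one printed, held the same matches and is not shown. Pycard held a single PU.1-type match, and Casp1 held none of the 5 motifs in this window. Of all 32851 RefSeq windows of this length, 8.46% held the NF-kB motif, 3.20% the PU.1-type site, 3.44% the interferon-response element, 8.30% the GAS element and 7.81% AP-1. Among the other members, 1 of the Nlrp3 windows held an NF-kB match and the Aim2 window a PU.1-type match. These matches describe letters only and say nothing about binding, and their relation to the LPS changes was not tested.

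At baseline the inflammasome genes were read almost wholly in the Cx3cr1-tagged libraries. Untreated tagged microglia were set against the mean of the 3 cortical types, and the 6 members that could be tested were called higher (adjusted p from 1.27e-11 to 8.80e-07, edgeR's quasi-likelihood test), where 49.8% of 9421 genes were called and 21.8% were called higher. These members passed the filter on low counts only through the microglial libraries, so higher was the only call open to them, and their levels are the description. Casp4 was too low for the test. Whole brain was tagged in the Cx3cr1 line and cortex in the others, so region and cell type cannot be told apart.

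Nlrp3 stood at 50.9 and 110.1 normalised CPM in untreated microglia, and a single read was counted over all 6 cortical libraries. Aim2 stood at 58.1 and 58.7 CPM in microglia and at 2 cortical reads. Pycard had 130.8 and 102.8 CPM in microglia and 1 cortical read. Every untreated microglial library lay above every cortical library for each of these, and the ratio of microglial to pooled cortical CPM was 648 for Nlrp3 (95% counting interval 116 to 25610), 235 for Aim2 (65.2 to 1943) and 941 for Pycard (169 to 37160). Casp1 had 116 and 88.1 CPM in microglia and 8 cortical reads, 7 of them in Camk2a-tagged cortex, a ratio of 103 (52.2 to 238). Casp8, the initiator caspase of death-receptor signalling, had 290.6 and 580 CPM in microglia and 1 cortical read. Gsdmd had 50.9 and 161.5 CPM in microglia and 1 cortical read. Casp4 had 29.1 and 51.4 CPM in microglia and no cortical read, which is at least 108-fold higher against a floor of 3 counts over the 6 cortical libraries. These intervals cover the counting error of the cortical reads alone. The microglial reads, 22 for Nlrp3, 16 for Aim2, 32 for Pycard and 28 for Casp1, add error that is left out. The intervals are therefore too narrow. The pooled LPS ratios below count the error of both sides. Intervals and floors of either kind hold no spread between libraries. Fewer cells of a type and less mRNA per cell cannot be told apart in any of these libraries. The low cortical counts also bear on Aim2, whose RefSeq span overlaps that of the neuronal adhesion gene Cadm3 by 18593 bases: the cortical libraries held 2194 reads of Cadm3 and 2 of Aim2, and RNA-seq of microglia held at most 6 reads of Cadm3 in a library.

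**Figure D1:**
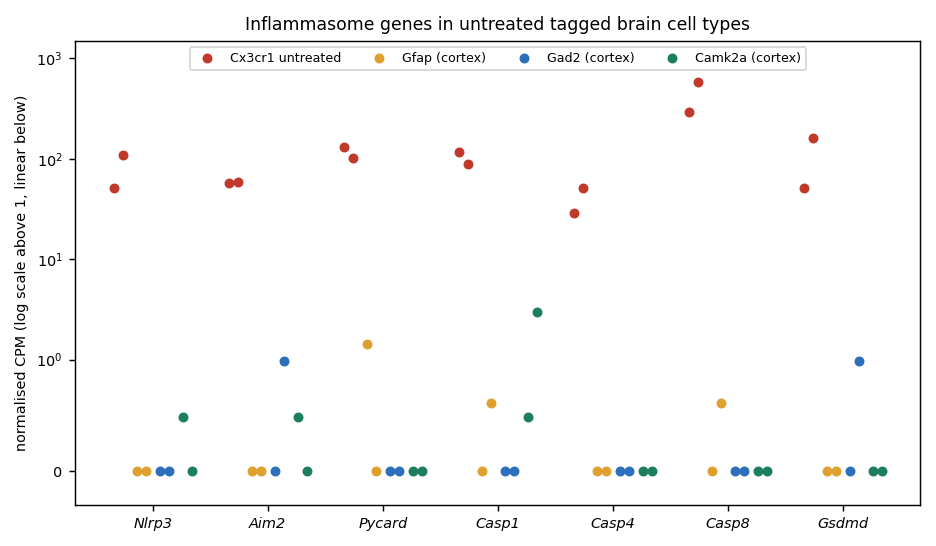
Normalised CPM of each inflammasome gene in each untreated tagged library (points, 2 per line), with the Cx3cr1 line on whole brain and the Gfap, Gad2 and Camk2a lines on cortex. The axis is logarithmic above 1 CPM and linear below. Every Cx3cr1 point lies at 29.1 CPM or more and every cortical point at 3.00 CPM or less.

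LPS was set against PBS in both assays. In RNA-seq, 2 of 7 inflammasome genes rose, Casp4 and Pycard, and none fell, where 26.4% of 10267 genes were called (15.9% higher and 10.4% lower), so 2 of 7 lies near the share called among all genes. In PAPERCLIP, 0 of 6 members tested passed edgeR's quasi-likelihood test, where 3.53% of 5692 genes were called (2.74% higher and 0.791% lower). Pycard alone of the members was under an unadjusted p of 0.05 there, as were 470 of the 5692 genes on the higher side and 430 on the lower. DESeq2 also called no member. With the replicate number as a block, 1 member passed (Pycard), and 423 genes were called, 61.0% of them higher, against 77.6% higher without the block. The median log2 change over the members was 0.28 in RNA-seq, against -0.02 for all genes, and 0.17 in PAPERCLIP, against -0.01 for all genes. Of the RNA-seq calls 60.4% were higher with TMM scaling, and 43.9% with library totals alone, a scaling that moved the median of all genes to -0.13.

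Nlrp3, the sensor of membrane damage and ion loss, passed the main test in neither assay. In RNA-seq it had 129.2, 129.2 and 127.3 CPM after LPS, against 198.7, 180.9 and 127.8 CPM after PBS. All LPS libraries and PBS replicate 3 sat at one level, with the other PBS libraries above them. The log2 change was -0.39 ± 0.14 (SE, n = 3 each), with an adjusted p of 0.0635. PBS replicate 3 also differed from the other PBS libraries in Ttr, with 1439 to 1846 CPM after LPS, against 1748 CPM in that library and 7684 and 7145 CPM in the others. Without it Nlrp3 fell, by 0.57 with an adjusted p of 0.000986, and without replicate 3 of both groups by 0.56 with an adjusted p of 0.000137. What the markers of PBS replicate 3 contribute was not tested. With all libraries, the RNA-seq fall of Nlrp3 passed with a replicate block (adjusted p 0.0366), library totals alone (0.017) and no filter on low counts (0.00915). In PAPERCLIP, Nlrp3 had 82.0, 88.4 and 72.3 CPM after LPS, against 105, 52.3 and 71.6 CPM after PBS, and the LPS values lay inside the PBS range. The log2 change was 0.07 ± 0.27 (adjusted p 0.929), with a 95% interval of -0.52 to 0.66.

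Aim2, the sensor of double-stranded DNA in the cytosol, had 117, 113 and 106 CPM in RNA-seq after LPS, against 91.0, 101.7 and 86.5 CPM after PBS. The groups did not overlap, but the log2 change of 0.28 ± 0.11 missed the threshold (adjusted p 0.0741). In PAPERCLIP it had 67.2, 58.4 and 60.1 CPM after LPS, against 97.6, 56.4 and 46.7 CPM after PBS. The PBS values spanned those after LPS, with a log2 change of -0.10 ± 0.29 (adjusted p 0.908).

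Pycard, the adaptor, was higher after LPS in every library of both assays. In RNA-seq it had 112, 110.2 and 91.3 CPM after LPS, against 75.1, 74.6 and 80.5 CPM after PBS, with means of 104.5 ± 11.4 and 76.7 ± 3.29 (SD, n = 3 each). The rise was 0.45 ± 0.11 on the log2 scale, or 1.37-fold, with an adjusted p of 0.0124. The call was lost with library totals alone (adjusted p 0.0502), with DESeq2 (0.0779), and without LPS replicate 1 (0.0594), LPS replicate 2 (0.0507) or PBS replicate 1 (0.0552). In PAPERCLIP it had 225, 193 and 234 CPM after LPS, against 139, 129 and 109 CPM after PBS, so the lowest LPS library lay well above the highest PBS library. The log2 change was 0.79 ± 0.21 (95% interval 0.35 to 1.24), with an adjusted p of 0.0521, just outside the threshold. Same-numbered LPS and PBS libraries deviated together in PAPERCLIP, and with the replicate number as a block the change of 0.79 passed, with an adjusted p of 0.0151. Untreated tagged microglia, at 133 and 111 CPM, lay at the level of the PBS libraries. Monocyte markers, 8 genes, were also higher after LPS in PAPERCLIP, at 400.5 to 460 CPM after LPS and 260.5 to 312 CPM after PBS, while in RNA-seq they overlapped, at 298 to 489 CPM after LPS and 177 to 345 CPM after PBS. T and NK cell markers were higher after LPS in PAPERCLIP too, at 15.4 to 32.4 CPM after LPS and 0 to 11.8 CPM after PBS. Their part in the Pycard values was not tested.

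Among the caspases, Casp1, which matures interleukin-1β, passed the test in neither assay. In RNA-seq it had 56.3, 53.2 and 57.8 CPM after LPS, against 45.5, 40.4 and 46.8 CPM after PBS. All LPS libraries were the higher ones, but the log2 change of 0.32 ± 0.13 missed the threshold (adjusted p 0.0946). In PAPERCLIP it had 89.9, 80.5 and 99.3 CPM after LPS, against 97.6, 60.4 and 21.8 CPM after PBS, and the groups overlapped. The log2 change there was 0.61 ± 0.37 (adjusted p 0.449), and 0.11 without replicate 3 of both groups.

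Casp4, the cytosolic LPS receptor, had the largest change among the members in RNA-seq. It had 38.2, 40.5 and 38.5 CPM after LPS, against 18.3, 13.98 and 20.7 CPM after PBS, with means of 39.1 ± 1.23 and 17.7 ± 3.39 (SD, n = 3 each). The groups were well apart, the rise was 1.12 ± 0.19 on the log2 scale, or 2.18-fold, and the adjusted p was 0.000842. The call held without any single library (log2 change 1.01 to 1.24, adjusted p 0.000563 to 0.00587) and with every other setting tried for RNA-seq. In PAPERCLIP it was read 25, 6 and 19 times after LPS, against 3, 0 and 5 times after PBS, too few for the test. Given the depths, this is 24.7, 9.47 and 23.3 CPM after LPS and 11.3, 0 and 15.6 CPM after PBS, with LPS replicate 2 inside the PBS range. The pooled ratio was 2.11 with a 95% counting interval of 0.994 to 5.16, and the fit without a filter on low counts gave a log2 change of 1.14 ± 0.60 (adjusted p 0.388).

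Casp8, which starts apoptosis and holds back necroptosis, showed no detectable change. In RNA-seq it averaged 146.6 ± 8.03 CPM after LPS and 152 ± 6.01 CPM after PBS (SD, n = 3 each). The groups overlapped, and the 95% interval of the log2 change of -0.05 ± 0.09 ran from -0.25 to 0.15 (adjusted p 0.713). In PAPERCLIP it had 251, 139 and 134 CPM after LPS, against 180.1, 213 and 99.7 CPM after PBS, with a log2 change of 0.11 ± 0.31 (adjusted p 0.908).

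Gsdmd, the pore former, had 131, 155 and 122 CPM in RNA-seq after LPS, against 119, 119.6 and 118 CPM after PBS. The PBS libraries lay close together and the LPS libraries all above them, spread more widely, and the log2 change of 0.21 ± 0.11 did not pass (adjusted p 0.177). In PAPERCLIP it had 56.3, 44.2 and 74.8 CPM after LPS, against 48.8, 68.4 and 34.3 CPM after PBS. The groups overlapped there, with a log2 change of 0.24 ± 0.33 (adjusted p 0.79).

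**Figure D2:**
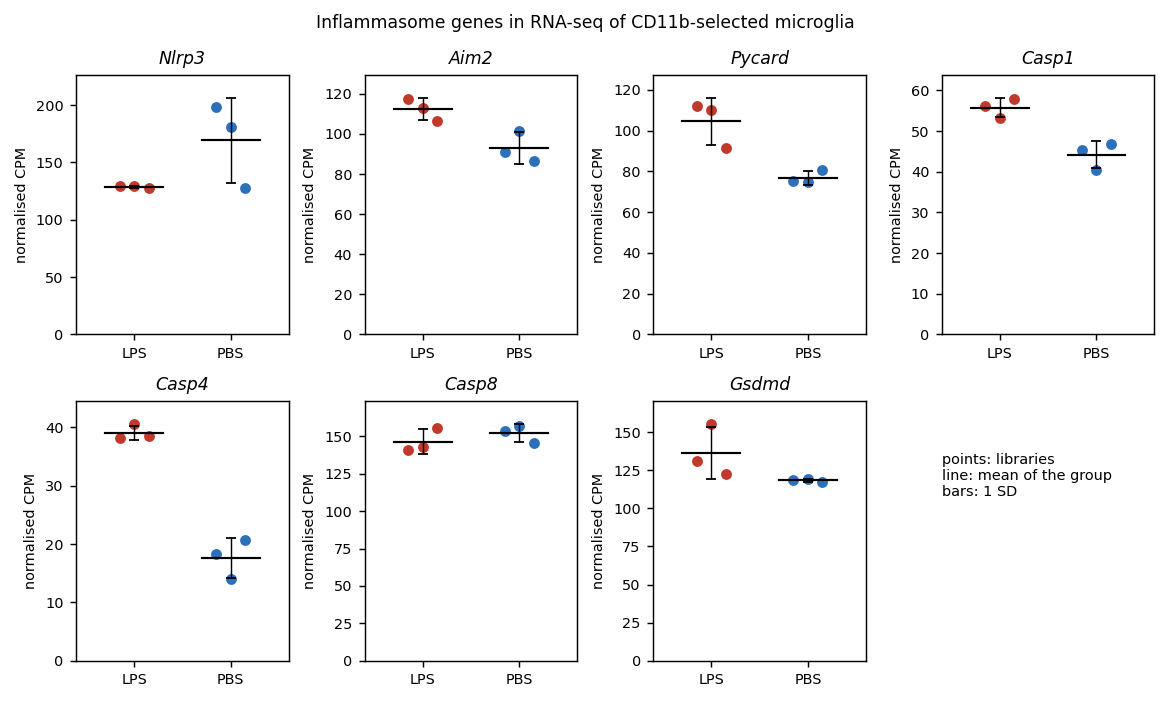
Normalised CPM of the 7 genes in RNA-seq of CD11b-selected microglia, LPS left of PBS, with 1 point per library, the mean as a line and 1 SD as bars. LPS and PBS points do not overlap for Aim2, Pycard, Casp1, Casp4 and Gsdmd, and only Pycard and Casp4 passed the test. The share of all genes without overlap was not counted, so the separation is no result about this set.

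**Figure D3:**
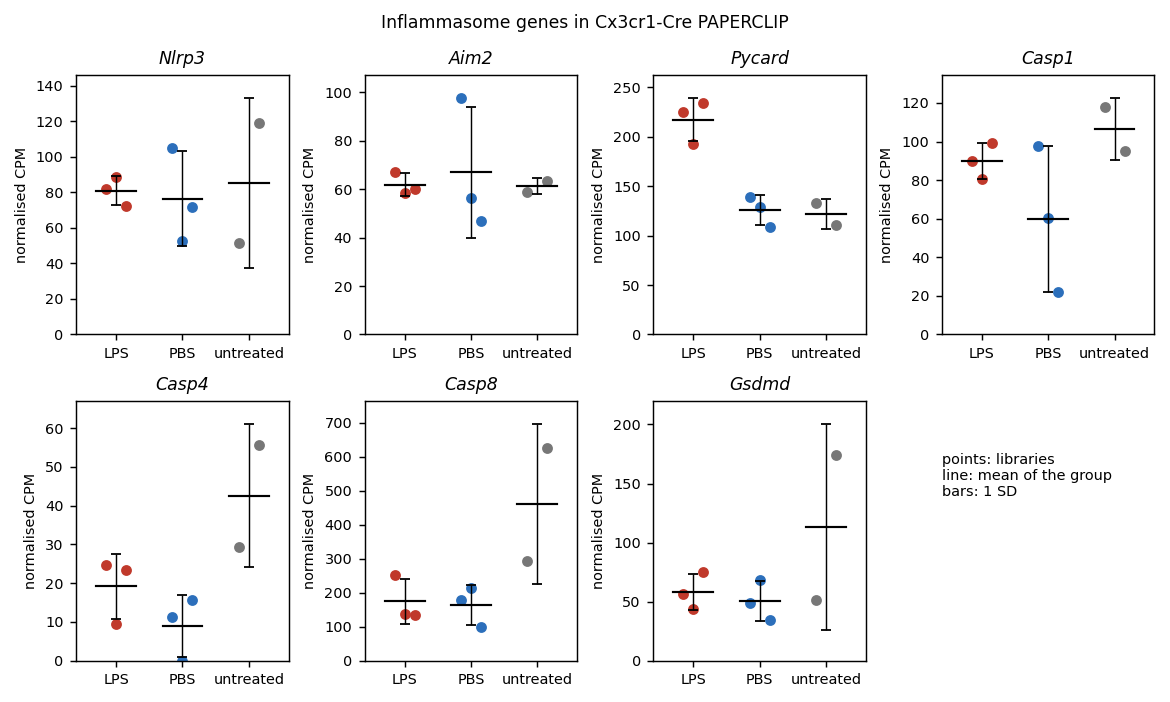
Normalised CPM of the 7 genes in Cx3cr1-Cre PAPERCLIP, LPS left of PBS left of untreated, with 1 point per library, the mean as a line and 1 SD as bars. Only Pycard has every LPS point (193 to 234 CPM) above every PBS point (109 to 139 CPM), and the untreated points of Casp8 and Casp4 lie above the PBS ones. The share of all genes separated in these ways was not counted.

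The LPS response was compared between the assays in a single fit, as the RNA-seq change minus the PAPERCLIP change. None of the 7 members differed at the threshold with edgeR's quasi-likelihood test, where 0.00984% of 10164 genes did. No member was under an unadjusted p of 0.05, where 460 of all genes were on the higher side and 458 on the lower. DESeq2 called no member. With the replicate block 57 genes differed, with no member among them. The differences nearest to it were -0.42 ± 0.21 for Pycard (95% interval -0.87 to 0.03, adjusted p 0.6) and -0.53 ± 0.31 for Nlrp3 (-1.18 to 0.11, adjusted p 0.657). For Casp4 the difference was 0.00 ± 0.67, with an interval of -1.41 to 1.41, an interval wider than the Casp4 change itself. Mice, cell recovery and library type differ together between the assays and cannot be told apart.

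**Figure D4:**
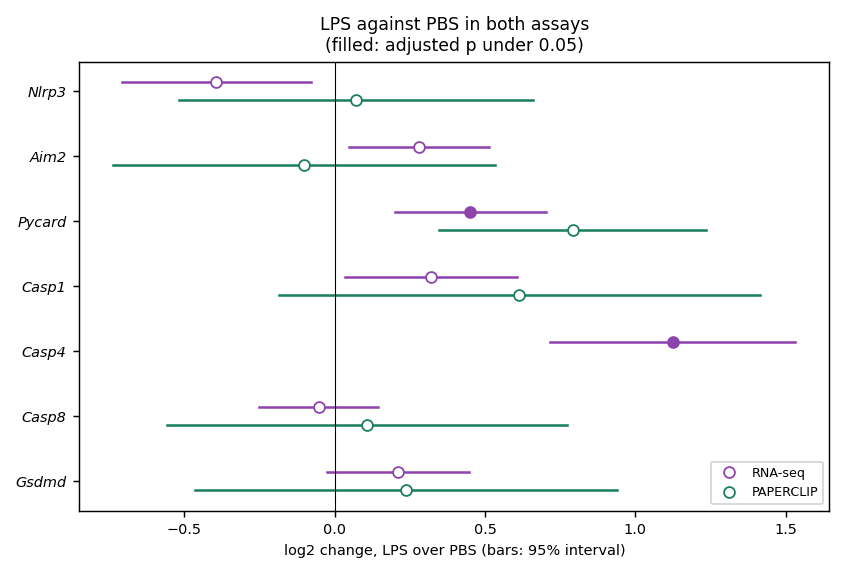
Log2 change of each gene, LPS over PBS, in RNA-seq and PAPERCLIP, with its 95% interval as a bar and filled points where the adjusted p was under 0.05. Casp4 (1.12) and Pycard (0.45) are the filled points, both in RNA-seq, and Casp4 has no PAPERCLIP point because it was too low for the test.

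PBS-treated tagged microglia were set against untreated ones, with CPM on the scale of the 8 Cx3cr1 libraries as for LPS, so that untreated values differ slightly from those beside the cortical types. None of 6 members passed edgeR's quasi-likelihood test, where 2.01% of 5112 genes were called (0.548% higher and 1.47% lower). Casp8 and Gsdmd were under an unadjusted p of 0.05, both lower, as were 549 of the 5112 genes on the lower side and 438 on the higher. DESeq2 called 1 member, Casp8. Casp8 had 180.1, 213 and 99.7 CPM after PBS, against 295 and 627 CPM untreated. No PBS library reached the lower untreated one, and the log2 change was -1.49 ± 0.42 (adjusted p 0.072). It passed with DESeq2 (adjusted p 0.0219), without a filter on low counts (0.0055), with libraries thinned to equal depth (0.0396) and without untreated replicate 1 (0.0239). Without untreated replicate 2 its change was -0.85 (adjusted p 0.512). Gsdmd had 48.8, 68.4 and 34.3 CPM after PBS, against 51.6 and 174.5 CPM untreated, with overlapping groups and a log2 change of -1.17 ± 0.50 (adjusted p 0.227). It passed without untreated replicate 1 (-1.72, adjusted p 0.0448), and without untreated replicate 2 the change was -0.05 (adjusted p 0.984). Untreated replicate 2, the high one for both genes, also held border macrophage markers at 2113 CPM, against 761 to 895 CPM after PBS and 768 CPM in untreated replicate 1. Casp4 had 11.3, 0 and 15.6 CPM after PBS, against 29.5 and 55.5 CPM untreated, from 8 reads in all after PBS and 11 untreated. Its log2 change without a filter was -1.99 ± 0.77 (adjusted p 0.19). The other members gave log2 changes of -0.86 for Casp1, -0.14 for Nlrp3, 0.04 for Pycard and 0.12 for Aim2. The tagged PBS libraries serve in this comparison and in that of LPS with PBS, so the changes in both are not independent.

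The wider pathway was read from 48 further genes in 5 lists, of which Irgb10 was not matched. Counts below stand beside 15.9% of all genes called higher and 10.4% lower in RNA-seq, and 2.74% and 0.791% in PAPERCLIP. Il1b, the cytokine precursor that caspase-1 cuts, was high after LPS in both assays. In RNA-seq it had 384, 757 and 530.2 CPM after LPS, against 46.0, 55.1 and 103 CPM after PBS, a log2 rise of 3.03 ± 0.29 (adjusted p 1.51e-05). In PAPERCLIP it was read 89, 28 and 16 times after LPS, against 0 times in each PBS library, and it was at 0 in the untreated ones too. That is 88.0, 44.2 and 19.6 CPM after LPS, at least 14-fold higher than PBS against a floor of 3 counts over the 3 PBS libraries. Il1b did not pass the filter on low counts in PAPERCLIP. In edgeR's fit without a filter its adjusted p was 1.07e-12, but that fit took its spread almost wholly from all genes together. This p-value says little about the spread of the 3 LPS libraries, which ran from 19.6 to 88.0 CPM. In these tagged libraries neutrophil markers summed to 4.72 to 5.89 CPM after LPS and to 0 to 3.755 CPM after PBS. Their part in the Il1b values was not tested. In RNA-seq those markers and Il1b were both higher in PBS replicate 3 than in the other PBS libraries.

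Of the 8 outputs, 2 rose in RNA-seq, Il1b and Il1rn, the receptor antagonist of interleukin-1, and none fell. Il1rn had 13.2, 25.9 and 15.9 CPM after LPS, against 1.98, 0 and 3.81 CPM after PBS, a log2 change of 3.11 ± 0.62 (adjusted p 0.000921). In PAPERCLIP Il1rn alone of the 4 outputs tested rose (adjusted p 0.00683), from 65, 32 and 19 reads after LPS against 1, 0 and 1 after PBS, a pooled ratio of 19.6 with a 95% counting interval of 5.31 to 164. Its call missed the threshold without PBS replicate 1 (adjusted p 0.0528) or PBS replicate 2 (0.0506). Il18, the other caspase-1 cargo, had 18.8, 11.7 and 11.7 CPM in RNA-seq after LPS, against 17.8, 15.5 and 14.7 CPM after PBS, and its log2 change of -0.20 ± 0.26 did not pass (adjusted p 0.619). Il18 was read 10 to 21 times per PAPERCLIP library after LPS and 3 or 4 times after PBS, too few for the filter, and the fit without one gave a log2 change of 0.61 ± 0.59 (adjusted p 0.722).

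Of 11 other sensors, 7 could be tested in RNA-seq, and 5 rose and none fell. Ifi204, a DNA-binding protein of the interferon-inducible p200 family to which Aim2 belongs, had 111, 162 and 96.3 CPM after LPS, against 16.3, 24.9 and 21.8 CPM after PBS, a log2 rise of 2.60 ± 0.23 (adjusted p 6.93e-06). It also rose in PAPERCLIP, where it was 1 of 2 sensors tested, with 213, 243 and 219 CPM after LPS, against 67.5, 32.2 and 40.5 CPM after PBS (log2 change 2.25 ± 0.28, adjusted p 0.000465). Mefv, which encodes pyrin, was read 14, 34 and 8 times in RNA-seq after LPS and 1, 0 and 7 times after PBS (log2 change 2.85 ± 0.78, adjusted p 0.00701). Naip2 (0.90), Naip5 (0.40) and Naip6 (0.48), whose products hand bacterial proteins to NLRC4, also rose, but these genes are near-identical copies and reads may be split between them. The Naip5 call was lost with library totals (adjusted p 0.0578), DESeq2 (0.0698) and without LPS replicate 1 (0.067), PBS replicate 1 (0.058) or PBS replicate 3 (0.0504). The Naip6 call was lost with library totals (0.0681), DESeq2 (0.0686) and without LPS replicate 2 (0.0685), PBS replicate 1 (0.073) or PBS replicate 2 (0.0839).

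Of 10 licensing and regulatory genes tested in RNA-seq, 3 rose, 1 fell and 6 did not pass. Txnip, a thioredoxin-binding protein reported to bind NLRP3, had 580.1, 566 and 606 CPM after LPS, against 1106, 1245 and 1228 CPM after PBS, and fell by 1.03 ± 0.09 on the log2 scale (adjusted p 9.76e-06). In PAPERCLIP all 3 LPS libraries of Txnip were also lower, at 733, 1039 and 647 CPM after LPS and 1201, 1473 and 1077 CPM after PBS, with a log2 change of -0.64 ± 0.22 that did not pass (adjusted p 0.143). Tnfaip3, the NF-kB inhibitor A20, rose by 0.98 (adjusted p 8.11e-05), Trim30a by 0.41 (adjusted p 0.0167) and P2rx7, the ATP-gated channel, by 0.29 (adjusted p 0.0468). The Trim30a call was lost with library totals (adjusted p 0.0671), DESeq2 (0.0568) and without LPS replicate 2 (0.0753), PBS replicate 1 (0.0566) or PBS replicate 3 (0.0515). The P2rx7 call was lost with library totals (0.214), DESeq2 (0.104) and without LPS replicate 1 (0.147), LPS replicate 3 (0.0705), PBS replicate 1 (0.124) or PBS replicate 2 (0.201). Nek7, the kinase that licenses NLRP3, had a log2 change of 0.26 ± 0.09 in RNA-seq (adjusted p 0.0648) and of -0.02 ± 0.35 in PAPERCLIP (adjusted p 0.984). None of 7 genes of this list tested in PAPERCLIP passed, with 3 under an unadjusted p of 0.05. At that level stood 470 of all 5692 genes on the higher side and 430 on the lower. Only Nek7 among these 7 was read with the replicate block.

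Of 6 guanylate-binding and related GTPases tested in RNA-seq, which open pathogen membranes to caspase-11, 3 rose and none fell. Gbp2 had 51.4, 54.1 and 48.6 CPM after LPS, against 9.89, 13.2 and 21.8 CPM after PBS (log2 change 1.78 ± 0.25, adjusted p 0.000196), and Gbp5 and Gbp9 rose by 0.69 and 0.43. The Gbp5 call was lost with DESeq2 (adjusted p 0.0693) and without LPS replicate 1 (0.0749), PBS replicate 1 (0.067) or PBS replicate 2 (0.0713). The Gbp9 call was lost with library totals (0.0988), DESeq2 (0.174) and without LPS replicate 1 (0.127), LPS replicate 2 (0.0501), PBS replicate 1 (0.0961) or PBS replicate 2 (0.118). In PAPERCLIP 1 of 4 rose, Gbp2, with 47.4, 47.4 and 50.3 CPM after LPS, against 22.5, 20.1 and 9.34 CPM after PBS (log2 change 1.5 ± 0.40, adjusted p 0.0436), a call lost with DESeq2 (0.133), a 5 CPM filter (0.059) and without any single library (0.0717 to 0.188). Of 8 cell death partners tested in RNA-seq, 2 rose, Zbp1 and Ripk1, and none fell. Zbp1, a sensor of Z-form nucleic acid, had 32.0, 35.6 and 19.3 CPM after LPS, against 3.46, 6.21 and 7.62 CPM after PBS (log2 change 2.37 ± 0.36, adjusted p 0.000262). In PAPERCLIP it was read 54, 39 and 39 times after LPS and 1, 1 and 2 times after PBS (log2 change 3.43, adjusted p 0.00106), the single call among 5 tested. Ripk1 rose by 0.61 in RNA-seq (adjusted p 0.00538). Casp12, another caspase of the inflammatory family, was read at most 7 times in any treated library of either assay and was not tested.

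**Figure D5:**
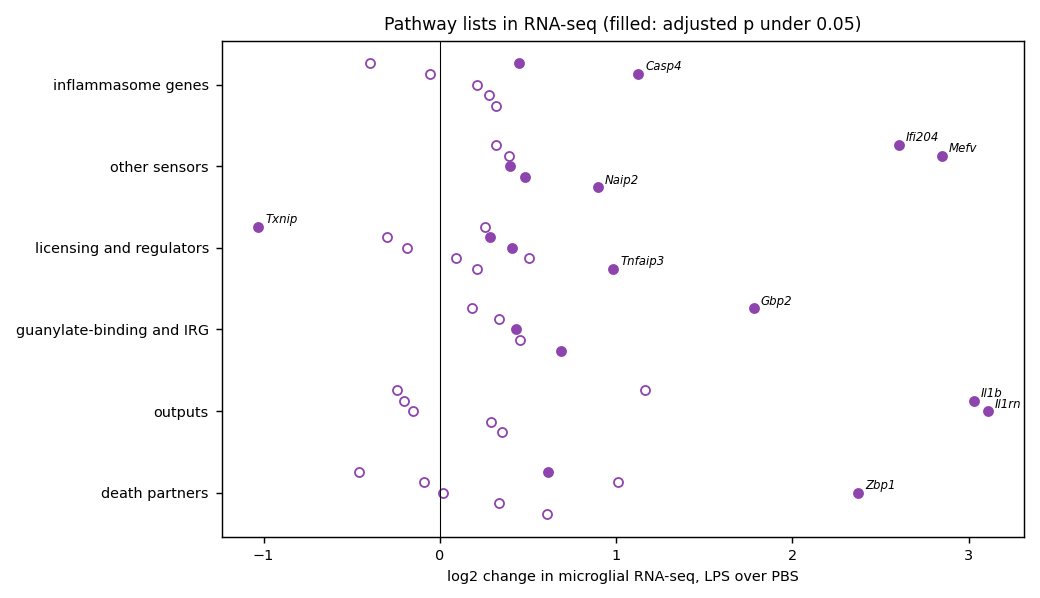
Log2 change, LPS over PBS, in microglial RNA-seq of every tested gene of the inflammasome set and of 5 further lists, 1 point per gene, filled where the adjusted p was under 0.05. Il1rn (3.11), Il1b (3.03), Mefv (2.85), Ifi204 (2.60) and Zbp1 (2.37) lie far to the right of the inflammasome genes, and Txnip (-1.03) is the filled point on the left.

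Genes whose pattern was most like each member were taken over the 14 tagged brain libraries by Pearson's r of log2 CPM among 8819 genes. The closest were Cbr2 for Nlrp3 (r = 0.999), Pld4 for Pycard (0.997), Samsn1 for Aim2 (0.997), Ly86 for Casp8 (0.996), Sash3 for Gsdmd (0.995) and Slfn8 for Casp1 (0.988). Casp4 was too low to enter. The libraries fall into 8 of the Cx3cr1 line and 6 cortical ones, so these values mostly restate that split and share depth and scaling.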

How the data were processed

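The authors deposited raw gene counts, whole numbers with no normalisation, for each of the 24 libraries. The submitters' processing notes name cutadapt, Novoalign and the mm10 build for PAPERCLIP and STAR for RNA-seq. PAPERCLIP linkers carry a 7-base random barcode, per the labels' protocols. Duplicate removal, read assignment and strand handling, steps not given in the sources used here, make counts of overlapping genes and near-identical copies uncertain. A gene table named 46488 of the 47069 RNA-seq identifiers, and 23104 symbols occurred in both assays.

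Sample titles gave the groups. The main test was edgeR 4.0.16's quasi-likelihood test (R 4.3.3, limma 3.58.1) after filterByExpr and TMM scaling, with p-values adjusted by Benjamini-Hochberg across each whole table and a threshold of 0.05. For cell types the 8 untreated libraries were fitted, for PBS against untreated also the LPS libraries, to estimate the spread, and for the assay difference 12 libraries in 4 groups. Each adjusted p comes from these fits where no other tool is named. Normalised CPM use TMM-scaled totals of the libraries compared, and plain CPM use library totals (marker genes, liver, knockout cortex). Levels were not compared between genes. Labels call only the knockout libraries biological replicates. The spread behind each p-value is thus that between libraries, which may be technical. Fits without a filter are an exception for LPS against PBS and PBS against untreated in tagged microglia. They took their spread almost wholly from all genes together, so their p-values say little about a gene's own replicates. No replicate pair differed by sampling noise alone (lowest chi-square per degree of freedom 2.10).

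Whether replicate numbers pair libraries was checked from the correlation of their deviations from the group means, over genes averaging 20 CPM or more. Same-numbered LPS and PBS libraries of PAPERCLIP gave 0.124, 0.258 and 0.191 and all other LPS and PBS pairs gave values below 0. Deviations from a group mean sum to 0, so the negative values partly follow from the positive ones. The numbers were taken to pair them on this ground alone. The test itself has no block. Blocked fits were read for the members, the genes named in that comparison and the total of genes called. They were not read for the other list genes, so the list counts are without the block. Where a blocked fit changed a call or total it read, the value is given. Members, gene lists and the rule for named genes were chosen with earlier results of these data known. By that rule all members are named, called genes of each list (at most 5 in each direction), and Il1b, Il18, Nek7 and Casp12 in any case. Alternatives were other scalings (RLE, library totals), no filter, a 5 CPM filter, DESeq2 1.42.0, a replicate block, thinned counts, fewer or more libraries in the fit, and leaving out libraries. The block with replicate 3 left out was added after the data were seen. In simulated data, 14% of 50 genes raised 2-fold were recovered in PAPERCLIP LPS against PBS, 10% in RNA-seq and 2% for the assay difference. For 4-fold rises the shares were 92%, 92% and 26%. The simulated spread was alike for all genes and both assays and was not estimated from these data, so these shares need not hold for the real libraries. In the real RNA-seq, log2 changes of the members had SE of 0.09 to 0.19, and Pycard passed with a 1.37-fold rise. The RNA-seq shares are therefore no measure of what that assay could detect.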

Additional observations from a re-analysis of the deposited data

Results flagged for a closer look

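Liver and knockout cortex entered no comparison and have no control libraries here, and counts above the limit that a count of 0 allows (3 counts per library) were found in both. The liver library, 115734 counts deep, held 9 counts of Casp8 (77.8 plain CPM) and 4 of Gsdmd (34.6 plain CPM), while Nlrp3, Pycard and Casp4 had none, which allows up to 25.9 CPM. Over the 3 Ptbp2-KO cortex libraries, which are ribosome-depleted and 19446610 to 27415288 counts deep, Nlrp3 had 21 counts and Aim2 210. Pycard had 289 counts there, Casp1 123, Casp4 42, Casp8 319 and Gsdmd 127. In plain CPM the knockout libraries ran from 0.206 to 0.368 for Nlrp3 and from 3.34 to 4.97 for Casp8. Casp4 had 29 of its counts in replicate 3, against 5 and 8 in the other libraries, and replicate 3 was also the library least like the others over all genes (chi-square per degree of freedom 75.5 and 76.9, against 6.67 between the other pair). Ptbp2 itself had 511 to 997 counts per knockout library, which with no control library is no check of the label. All values are described only.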

How the results depend on the processing

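The count of inflammasome genes called, 0 of 6 in PAPERCLIP, became 1 (Pycard) without a filter on low counts and with the replicate block, and the 201 calls over all genes became 632 without a filter, 423 with the block, 477 with the block but no replicate 3, and 74 to 167 without single libraries. In RNA-seq, DESeq2 gave 1781 calls and 1 inflammasome gene, against 2706 and 2, and single libraries left out gave 1 to 3. In RNA-seq, same-numbered LPS and PBS libraries gave r of 0.0992 to 0.188. LPS replicate 2 gave 0.0992 with its own number and 0.101 with PBS replicate 1, so the check did not settle pairing. The block gave Nlrp3 -0.39, adjusted p 0.0366. Nlrp3 also passed with library totals (0.017) and no filter (0.00915). For the assay difference, the single call over all genes became 114 without a filter, 87 with DESeq2, 57 with the block, 42 without replicate 3, 3 when thinned and 1 to 37 without single libraries, with no inflammasome gene among them. At baseline, thinning gave 2708 calls and 3 inflammasome genes, and leaving out single libraries 3 to 6, because fewer members passed the filter. For PBS against untreated, 103 calls became 313 without a filter, 43 at 5 CPM, 234 with DESeq2, 25 with 5 libraries and 3 to 495 without single libraries, with 1 inflammasome gene called without a filter, with DESeq2 and when thinned, and 0 to 2 without single libraries; 27.2% of calls were higher, and 37.8% with library totals. Reversed PAPERCLIP changes, none of which passed, were Aim2 0.0001124 (no filter), Nek7 0.0834 (no filter) and 0.0172 (5 CPM), Gsdmd -0.20 (no replicate 3), -0.11 (thinned) and -0.19 (block, no replicate 3), Nlrp3 -0.0285 (thinned) and Casp8 -0.0183 (block, no replicate 3). Without single libraries they ran from -0.25 to 0.35 for Casp8, -0.32 to 0.29 for Aim2, -0.11 to 0.38 for Nlrp3 and -0.24 to 0.26 for Nek7. Reversed assay differences were Casp4 -0.0287 (library totals), -0.0557 (no filter) and -0.47 (no replicate 3), Casp1 0.16 and Gsdmd 0.39 (no replicate 3), and without single libraries -0.83 to 0.38 for Casp4, -0.61 to 0.00104 for Casp8 and -0.21 to 0.40 for Aim2. For PBS against untreated, Nlrp3 gave 0.084 and Pycard -0.16 when thinned, and without single libraries Nlrp3 ran from -0.55 to 0.57, Pycard from -0.0826 to 0.26 and Aim2 from -0.26 to 0.32. Plain CPM moved the mean of Aim2 to 55.8 (untreated), of Nlrp3 to 122.4, Casp1 to 53.0 and Casp4 to 37.2 (RNA-seq, LPS) and of Gsdmd to 121.6 (RNA-seq, PBS). The cause of these shifts was not tested. The block changed no other call of a member. In the LPS and PBS fits of tagged microglia without a filter, the spread came almost wholly from all genes together.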

Other observations

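Some pathway genes were read mainly outside tagged microglia at baseline, unlike the inflammasome genes. Il18 stood at 29.1 and 14.7 normalised CPM in untreated tagged microglia, against 71.8 and 72.1 CPM in Gfap-tagged cortex, 1.97 and 4.61 CPM in Gad2-tagged cortex and 0 and 0.966 CPM in Camk2a-tagged cortex. Both astrocyte libraries lay above both microglial ones, although the contrast with the mean of the 3 cortical types was positive (log2 change 2.09, adjusted p 0.0355, edgeR's quasi-likelihood test). Serpinb1a stood at 0 and 14.7 CPM in untreated microglia, against 89.4 and 104.3 CPM in Gfap-tagged cortex, and Gsdme at 0 in both microglial libraries, against 29.2 and 31.6 CPM in Gad2-tagged cortex. Il1b was at 0 in both untreated microglial libraries and had 2 reads in all of the cortex.

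Of the regulators tested at baseline, 6 of 9 were higher in untreated microglia than in the cortical mean and none lower, among them Nek7 (log2 change 3.90, adjusted p 0.000304), and so were 3 of 4 cell death partners, 3 of 5 outputs and both GTPases tested. Over all genes tested, 21.8% were called higher and 28.0% lower. Some of these genes, such as Il1a (1 cortical read) and Trim30a (3), reached the test only through the microglial libraries, so the counts partly follow from the filter. None of the 11 other sensors was high enough for that test. These genes were chosen for description after their values were seen.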
